A study of Arabidopsis thaliana with 12 samples.

Results

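DRT101 and LpxA are a pair of Arabidopsis genes of amino sugar metabolism, each read on this expression array by 1 probe whose only gene in the array's annotation is that gene. They are 2 of the 691 genes that have a probe of their own among the 3439 probes. Probe 3451 reads DRT101 (locus AT5G18070, on chromosome 5), annotated in the phosphoglucosamine mutase family, and probe 2903 reads LpxA (locus AT4G29540, on chromosome 4), a UDP-N-acetylglucosamine acyltransferase. The genes were selected on their intensities at the ages compared, which were known to be higher at 4 weeks than at 2 weeks, so that difference is described here and not tested. No probe shared between several genes lists either of them. RefSeq's TAIR10.1 annotation lists 1 transcript for DRT101 and 4 for LpxA, and the sources used here do not say which of them the LpxA probe reads.

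The study measured total RNA of wild-type plants of the ecotype Columbia 0, the usual laboratory strain, at ages of 4 weeks and 2 weeks, with 6 samples of each age numbered 1 to 6. Both ages carry the same genotype, and the labels name no allele and no treatment. The organ, the growth conditions and how many plants were pooled are not in the labels, and nothing says that the samples of an age came from separate plants. P-values therefore measure only the spread between these samples, which may be technical.

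Amino sugars enter plant metabolism through a short route that ends in UDP-N-acetylglucosamine, the activated sugar from which protein N-glycans, the anchors of many membrane proteins and the O-GlcNAc tags of nuclear proteins are built. Enzymes of the phosphoglucosamine mutase family move the phosphate group of the amino sugar to the position from which the nucleotide is attached. In bacteria such as Escherichia coli, LpxA uses the end product of that route and joins a hydroxylated fatty acid, delivered on acyl carrier protein, to it, the first step towards lipid A, the membrane anchor of lipopolysaccharide. Arabidopsis has genes for counterparts of several enzymes of this bacterial pathway. The name DRT101 stands for DNA-damage repair and toleration, after a screen of plant cDNAs in E. coli.

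Deposited intensities run on a linear scale from 0 to 100 in each sample. The median of the positive intensities lay between 0.466 and 0.517 in the 4-week samples and between 0.138 and 0.156 in the 2-week samples, and 421 to 471 probes stood at exactly 0 at 4 weeks against 557 to 694 at 2 weeks. The sources used here do not say what a 0 stands for, so a gene is said only to be listed at 0. Arrays of the same age were not independent in their deviations from the age mean. Adjacent sample numbers (1 and 2, 3 and 4, 5 and 6) deviated more alike than other pairs. Across genes, their r was 0.41 to 0.50 at 4 weeks and 0.01 to 0.31 at 2 weeks. For the other pairs of an age it was -0.47 to -0.26 at 4 weeks and -0.36 to -0.22 at 2 weeks. Of the 23 marker loci looked for, 3 of the 5 leaf photosynthesis loci had a probe of their own, and 0 of the 8 root, 0 of the 6 flower and 0 of the 4 leaf senescence loci did. The 3 leaf genes LHB1B2, PSAN and PRK fell at 4 weeks, with log2 differences of -1.43, -2.15 and -2.54 in normalized intensity (adjusted p = 5.60e-06, 2.22e-07 and 7.23e-10 in limma). Of all probes and genes tested, limma called 31.1% lower at 4 weeks, and these 3 genes were named after their values were seen. The organ behind the samples could not be checked further, and its part in the results below was not tested.

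DRT101 was measured in each of the 4-week samples and was listed at 0 in all but 1 of the 2-week samples. At 4 weeks its deposited intensity was 1.45 in sample 1, 1.47 in sample 2, 1.54 in sample 3, 1.55 in sample 4, 0.873 in sample 5 and 0.843 in sample 6. At 2 weeks it was 0.00550 in sample 4 and 0 in samples 1, 2, 3, 5 and 6. The ages did not overlap, and the lowest 4-week sample lay 153-fold above the highest 2-week sample. That 2-week value lay only just above 0.00529, the 1st percentile of the positive deposited values, so the 153-fold rests on a value near the lower end of the scale. In RNA of whole samples, fewer cells that express a gene and less of its RNA per cell cannot be told apart.

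LpxA was also measured in each 4-week sample, and in 4 of the 6 samples of 2 weeks. At 4 weeks its deposited intensity was 0.802 in sample 1, 0.898 in sample 2, 0.724 in sample 3, 0.728 in sample 4, 0.743 in sample 5 and 0.760 in sample 6. At 2 weeks it was 0.00267 in sample 1, 0.000804 in sample 3, 0.0241 in sample 5 and 0.0226 in sample 6, with samples 2 and 4 at 0. The ages did not overlap here either, and the lowest 4-week sample lay 30.1-fold above the highest 2-week sample. Of the 2961 probes and genes that passed the filter on low values, 65.6% likewise had each 4-week sample above each 2-week sample in deposited intensity, and 24% did after normalization.

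Of the 3439 probes, 491 (14.3%) were at 0 in at least 1 of the 2-week samples and in 0 of the 4-week samples. Among them, 77 (2.24%) were at 0 in 5 or 6 of the 2-week samples and in 0 of the 4-week samples, as DRT101 was. The reverse, 5 or 6 samples at 0 at 4 weeks and 0 at 2 weeks, held for 6 probes (0.174%). At 0 in at least 2 of the 2-week samples and in 0 of the 4-week samples, as LpxA was, were 254 probes (7.39%), against 30 (0.872%) the other way.

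**Figure D1:**
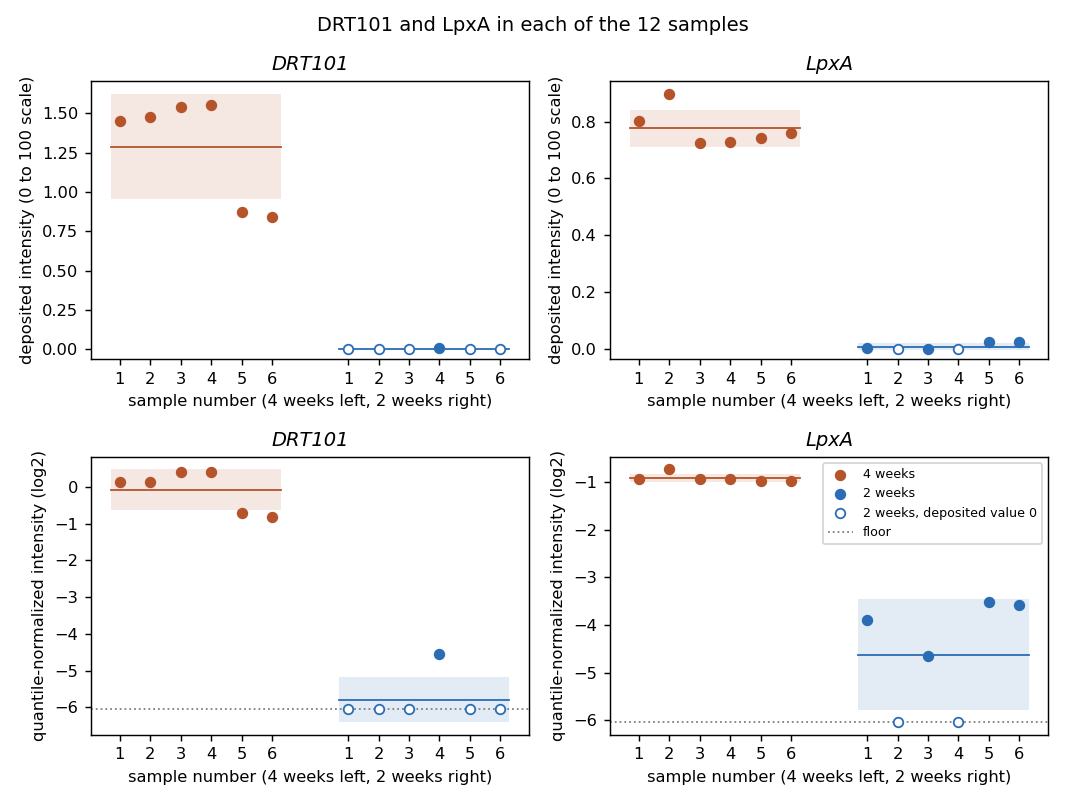
Intensity of DRT101 (left) and LpxA (right) in each sample, on the deposited scale (top) and as log2 of the quantile-normalized intensity (bottom), with 4 weeks left of 2 weeks. Points are samples, open points a deposited value of 0, lines and bands the mean ± SD of the 6 samples of an age, and the dotted line the floor. The 4-week samples of both genes lie above all 2-week samples, and samples 5 and 6 are the lowest of the 4-week samples for DRT101.

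The size of the difference depends on the scaling, since the array medians of positive intensities spread over 1.90 on the log2 scale. Arrays were quantile normalized, which gives each array the same distribution of intensities, and values under 0.0152, the 1st percentile of positive values after normalization, were raised to this floor. Before the floor was applied, normalized DRT101 intensity averaged 1.01 ± 0.339 at 4 weeks and 0.00711 ± 0.0174 at 2 weeks (SD, n = 6 each). With the floor, its log2 intensity averaged -0.07 ± 0.55 at 4 weeks and -5.79 ± 0.61 at 2 weeks (SD, n = 6 each), a difference of 5.72 (SE 0.32). Only 1 of the 6 samples of 2 weeks was above the floor, so this size rests on the floor. Normalized LpxA intensity averaged 0.532 ± 0.0355 at 4 weeks and 0.0462 ± 0.0394 at 2 weeks before the floor (SD, n = 6 each). With the floor, its log2 intensity averaged -0.91 ± 0.09 at 4 weeks and -4.62 ± 1.17 at 2 weeks (SD, n = 6 each), a difference of 3.71 (SE 0.44), with 4 of the 6 samples of 2 weeks above the floor.

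Quantile normalization changed the low 2-week intensities of both genes far more than their 4-week intensities. In LpxA it multiplied the 2-week intensity of sample 1 by 25, of sample 3 by 49.8, of sample 5 by 3.61 and of sample 6 by 3.70, whereas the 4-week factors of LpxA lay between 0.651 and 0.728. The deposited 2-week intensities of LpxA in samples 1 and 3 lay under 0.00529, the 1st percentile of the positive deposited values, so their ratios of 4 to 2 weeks are bounds, at least 152-fold in number 1 and at least 137-fold in number 3. After normalization, which places both samples above its floor, the ratios were 7.82-fold and 13.2-fold. Within number 5 the ratio was 30.9-fold in deposited intensity and 5.84-fold after normalization, and within number 6 it was 33.6-fold and 6.10-fold. For DRT101 the ratio could be formed in number 4 alone, at 282-fold in deposited intensity and 31.0-fold after normalization. Its 2-week value there, 0.00550, lay only just above the 1st percentile of 0.00529, so these sizes rest on 1 value near the lower end of the scale. The lowest 4-week sample stayed above the highest 2-week sample under each scaling, by 153-fold (deposited), 50.0-fold (each array divided by its median) and 13.3-fold (quantile) for DRT101, and by 30.1-fold, 9.34-fold and 5.84-fold in that order for LpxA.

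Over all tested probes the median log2 difference was 1.82 in the deposited values, where DRT101 stood at 7.87 (SE 0.18) and LpxA at 6.48 (SE 0.43). Less that median, the deposited differences were 6.05 for DRT101 and 4.65 for LpxA. With each array divided by its median they were 6.52 and 5.05, against a median over all probes of 0.14. With the floor at the 5th percentile, 0.0560, DRT101 stood at 4.09 (SE 0.22) and LpxA at 3.0 (SE 0.14). This floor lies above each 2-week value of DRT101, that of sample 4 included. For LpxA it also lies above the normalized 2-week value of sample 3, 0.0400. Values raised to the same floor do not differ, so these SEs leave out part of the 2-week spread.

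**Figure D2:**
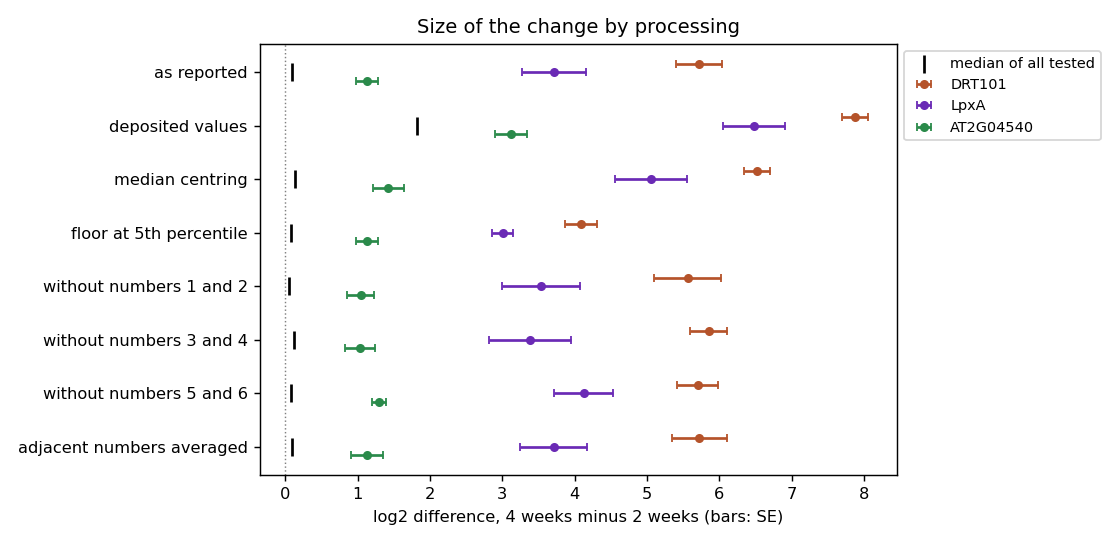
Log2 difference between 4 and 2 weeks of DRT101, LpxA and AT2G04540 (points, with SE bars) under 8 settings. Ticks mark the median over all tested probes. Of the settings, 3 leave out a pair of adjacent sample numbers at both ages. DRT101 runs from 4.09 to 7.87 and LpxA from 3.0 to 6.48, and both lie above the median of all probes in each.

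In the order of log2 differences, DRT101 stood 5th of the 2961 tested probes and genes and 1st of the 593 named genes, and LpxA stood 59th and 10th. The named gene after DRT101 was AT2G32470, at 4.94 (SE 0.30). LpxA stood between AT1G62760, at 3.78 (SE 0.34), and AT1G72890, which was listed at 0 in all 6 samples of 2 weeks and was at least 12.6-fold higher at 4 weeks against the floor. Values at the floor have no order of their own, so these places depend on the floor, and LpxA cannot be ordered against AT1G72890. With the floor at the 5th percentile DRT101 stood 9th and LpxA 53rd of 2876, and in the deposited values they stood 2nd and 27th of 2966. The ranks come from the contrast by which both genes were picked and are a description. Across the array, limma called 994 probes or genes higher at 4 weeks (33.6% of those tested) and 920 lower (31.1%). That fit treats the 6 samples of an age as separate. With adjacent numbers averaged, the calls were 751 higher and 756 lower. In the deposited values the split was 2245 higher and 327 lower.

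**Figure D3:**
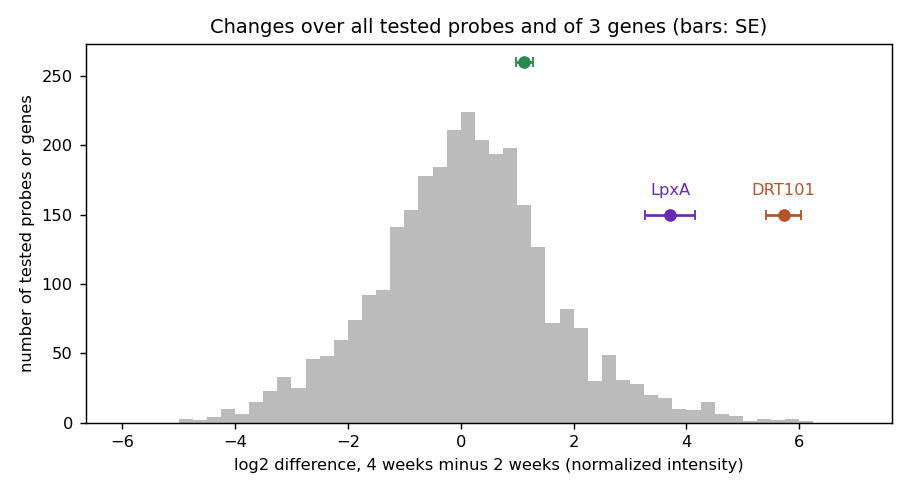
Histogram of the log2 differences between 4 and 2 weeks of normalized intensity over the 2961 tested probes and genes, in bins of 0.25, with the differences of DRT101, LpxA and AT2G04540 marked above it (bars are SE; the height of the marks has no meaning). DRT101, at 5.72, lies in the upper tail, LpxA, at 3.71, below it, and AT2G04540, at 1.13, within the bulk.

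Among the 4-week samples the genes varied in different ways. DRT101 spanned 1.84-fold from its highest to its lowest deposited intensity, with a coefficient of variation of 26.0%, and LpxA spanned 1.24-fold, with 8.53%. The median coefficient over the 2823 probes without a 0 at 4 weeks was 18.3%; 28.2% of these probes varied more than DRT101 and 10.8% varied less than LpxA.

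DRT101 took almost the same value in samples of adjacent number. Its deposited intensities at 4 weeks differed by 0.0217 between samples 1 and 2, by 0.0129 between 3 and 4 and by 0.0297 between 5 and 6, whereas the means of these pairs were 1.46, 1.54 and 0.858. On the normalized log2 scale, 99.7% of the sum of squares of DRT101 at 4 weeks lay between the pairs. The median share over 2750 genes was 77.0%, and 0.473% of the genes reached the share of DRT101. For LpxA the share was 49.7%, and 74.2% of the genes had as large a share. In deposited intensity the shares at 4 weeks were 99.9% for DRT101 and 78.5% for LpxA, against a median of 78.4% over 2956 genes. The 4-week LpxA intensities were close to each other except in sample 2, the highest.

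At 2 weeks, samples 5 and 6 held the highest deposited intensities of LpxA, 0.0241 and 0.0226, and the other 4 samples lay between 0 and 0.00267. Between the pairs lay 99.3% of the sum of squares of its deposited 2-week intensities (median over 2901 genes 66.3%), but 52.2% of that of its normalized log2 intensities (median over 2906 genes 64.3%), so the pattern depends on the scale. Samples 5 and 6 were thus the lowest for DRT101 at 4 weeks and the highest for LpxA at 2 weeks. Their removal at both ages left DRT101 at 5.70 (SE 0.28) and moved LpxA to 4.12 (SE 0.41). With adjacent numbers averaged, 3 against 3, the differences had SEs of 0.38 for DRT101 and 0.46 for LpxA.

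Little else of the pathway could be read. Of 45 further loci in 8 lists around both genes, 3 had a probe of their own. The list of UDP-N-acetylglucosamine synthesis, with 4 further loci, and that of lipid A type synthesis, with 10, had 0 each, as did the lists of UDP-N-acetylglucosamine users and transporters (11), hexosaminidases (3) and other phosphohexose mutases (4). The 3 loci with a probe were CKS of the 3 for Kdo synthesis, AT2G04540 of the 4 for mitochondrial acyl carriers and fatty acid synthesis, and DRT100 of the 6 DRT and photolyase genes. Another 2 of the 45 loci appear only on probes shared with other genes and were not read.

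AT2G04540 was the 1 locus of these lists that passed the filter on low values, and it rose. It was entered in its list as the mitochondrial ketoacyl-ACP synthase, an enzyme that lengthens fatty acids on acyl carrier protein, although the annotation tables give this locus no name. At 4 weeks its deposited intensity was 0.724, 0.647, 0.626, 0.685, 0.690 and 0.666 in samples 1 to 6. At 2 weeks it was 0.0496, 0.0553, 0.0752, 0.0731, 0.133 and 0.104 in samples 1 to 6. The ages did not overlap, with each 4-week sample the higher, as for 65.6% of the tested probes and genes in deposited intensity. None of the 12 values was 0, and samples 5 and 6 were the highest of the 2-week samples, as they were for LpxA.

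In normalized intensity AT2G04540 averaged 0.450 ± 0.0294 at 4 weeks and 0.210 ± 0.0534 at 2 weeks (SD, n = 6 each). Its log2 difference was 1.13 (SE 0.15, adjusted p = 3.08e-05 in limma over all tested probes). It was higher at 4 weeks in 6 of 6 sample numbers, which follows from the ages not overlapping. It was also called in the deposited values, at 3.13, where the median of all probes was 1.82, and with adjacent numbers averaged (adjusted p = 0.00724 in limma). Against the 33.6% of all tested probes called higher, 1 of 1 tested locus says nothing particular about the lists.

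CKS, the CMP-Kdo synthetase that activates Kdo, the sugar that bacteria attach to lipid A, was listed at 0 in all 6 samples of 4 weeks. At 2 weeks its deposited intensity was 0.00157 in sample 4 and 0.0132 in sample 6, with the other 4 samples at 0. DRT100, named from the same screen as DRT101, was among the 124 probes (3.61% of 3439) listed at 0 in all 12 samples. Neither CKS nor DRT100 was tested.

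Among the 592 other named genes tested, those whose normalized log2 intensity followed DRT101 most closely over the 12 samples were AT1G10310 (Pearson r = 0.989), AT3G04650 (0.987), AT1G16080 (0.987), AILP1 (0.986) and LAS (0.985). LAS, a GRAS-family regulator of axillary meristems, had a log2 difference of 3.0 between 4 and 2 weeks, and AT1G10310 had 3.08. All 5 genes were above 0 in each 2-week sample, in contrast to DRT101. For LpxA the closest were AT5G36470 (r = 0.955), AT4G13550 (0.948), AT1G35340 (0.943), AT2G04540 (0.942) and AT5G26850 (0.940). The locus AT2G04540 of the mitochondrial list is thus the 4th of 592 by likeness to LpxA over the 12 samples. Within 4 weeks both genes differed in sample 2, where LpxA had its highest normalized log2 intensity, -0.73, and AT2G04540 its lowest, -1.31. These correlations mostly describe the step between the ages, which the samples of an age share: 77 of the 592 genes had r above 0.9 with DRT101, and 40 with LpxA.

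Over the 6 samples of 4 weeks alone, where the step between the ages plays no part, 57 of 551 named genes had r above 0.9 with DRT101 and 3 had with LpxA. The closest to DRT101 were AT2G15440 (r = 0.989), AT5G10920 (0.987) and AT4G13680 (0.986). AT4G13680 had deposited intensities of 0.925, 0.932, 0.945 and 1.02 in samples 1 to 4 and of 0.311 and 0.376 in samples 5 and 6. It was picked by its likeness to DRT101 over these samples, so the shared division comes with the choice. Between the ages AT2G15440 rose, by 1.22 on the log2 scale (SE 0.16, adjusted p = 2.85e-05 in limma). AT5G10920 and AT4G13680 did not pass the test, with log2 differences of 0.41 (SE 0.23, adjusted p = 0.136 in limma) and 0.30 (SE 0.36, adjusted p = 0.475 in limma).

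The 3 genes closest to LpxA within 4 weeks were AT5G33390 (r = 0.920), AT3G13150, a pentatricopeptide repeat protein gene (0.918), and AT5G35100 (0.908). Each of these had its highest 4-week value in sample 2, as LpxA did. LpxA stood at -0.73 there in normalized log2 intensity and at -0.92 or lower in the other 4-week samples. The 3 genes were picked by these same samples, so the shared peak comes with the choice. DRT101 and LpxA followed each other with r = 0.88 over the 12 samples and r = 0.43 over the 6 samples of 4 weeks. Adjacent samples deviate together, so these correlations rest on fewer than 6 separate units per age.

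**Figure D4:**
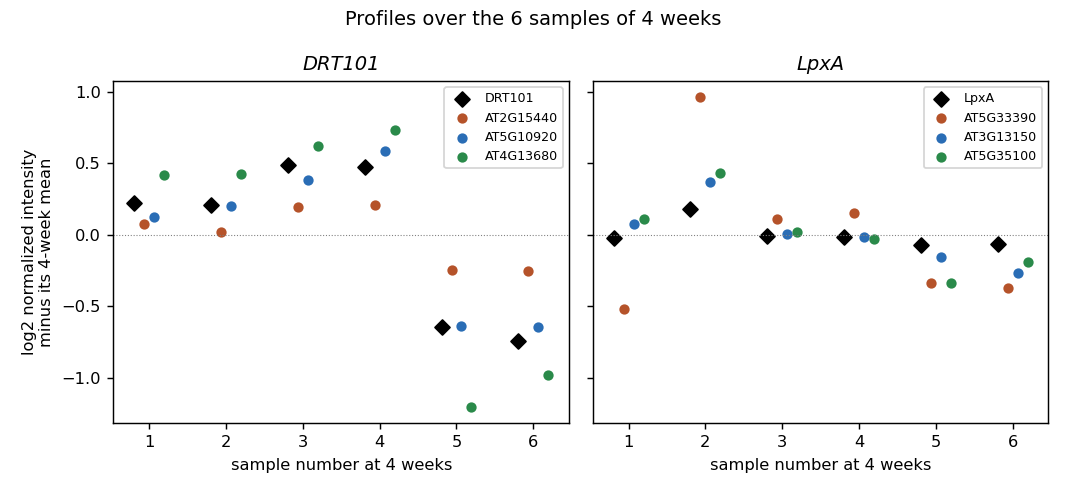
Log2 normalized intensity, less its 4-week mean, in the 6 samples of 4 weeks for DRT101 (left) and LpxA (right), shown as diamonds, and for the 3 named genes most like each (circles, set apart sideways for legibility). Samples 5 and 6 are low for DRT101 and the genes like it, and sample 2 is high for LpxA and the genes like it. The genes shown were picked by their correlation over these same 6 samples.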

How the data were processed

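The values are intensities as the authors deposited them, 1 for each probe in each sample; the sources used here do not describe their scanning, background correction or scaling. Arrays were quantile normalized and floored at the 1st percentile of positive values, and log2 was taken. Probes above the floor on at least 6 of the 12 arrays were kept (2961), and 4 weeks minus 2 weeks was fitted with limma 3.58.1 in R 4.3.3 (lmFit, eBayes, two-sided, Benjamini-Hochberg adjustment over all tested probes, threshold 0.05). The fit was tested on simulated data.

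Of the probes, 692 had 1 gene in the array's annotation, 870 several and 1877 were not listed. RefSeq TAIR10.1 matched 690 of the 692 and gave the names, loci, chromosomes, transcript counts and gene order used here. The array's build is not given. The members and gene lists were chosen with earlier results of these data known. Named are the members, the tested list genes, the 5 and 3 genes most like each member, and the members' neighbours in the order of differences. CKS, DRT100 and the leaf genes were named after their values were seen. A locus listed by mistake was left out.

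Deviations of same-numbered samples from the age means correlated across the ages at 0.16 to 0.44 in the 6 pairs, each above 0.1. The numbers were therefore taken to pair the samples in a separate fit with the replicate number as a block. The main fit held age alone and did not use this pairing. The number of arrays limits the precision.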

Additional observations from a re-analysis of the deposited data

Results flagged for a closer look

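In 6 of 48 groups of 6 samples, 1 sample stood apart in normalized log2 intensity, with a gap past Dixon's critical value. Among separate values, chance flags about 1 group in 20, but adjacent samples deviate together, so this rate may not hold here. Where the other 5 values lie at the floor, the gap fills the whole range. The 2-week group of AT1G72890 had all 6 values at the floor and could not be flagged. DRT101 was above the floor in 2-week sample 4 alone, at -4.55, with the other 5 at the floor of -6.04. AT1G62760, next above LpxA in the order of differences, was likewise above the floor in 2-week sample 6 alone, at -4.16. At 4 weeks the top value of LpxA was that of sample 2, -0.73, with -0.92 next to it, and without that sample its log2 difference was 3.72. At 2 weeks, AILP1 was lowest in sample 5, at -1.07 against -0.74, and AT4G13550 in sample 2, at -3.25 against -2.23. The lowest 4-week value of PRK was that of sample 3, -0.78, with -0.54 next to it.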

How the results depend on the processing

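The difference between 4 and 2 weeks kept its sign for DRT101 and LpxA wherever it could be computed. That follows from the ages not overlapping under each scaling and adds no support, and only the sizes are of interest here. The deposited values gave 7.87 for DRT101 and 6.48 for LpxA, median centring gave 6.52 and 5.05, and a floor at the 5th percentile gave 4.09 for DRT101. The floors and scales themselves differ between these settings, and under median centring and in the deposited values 4 of the 6 samples of 2 weeks of LpxA lay at or under the floor, against 2 after quantile normalization. With the dimmest 25% of probes left out, neither gene was kept. Leaving out 1 sample in turn gave 5.60 to 6.04 for DRT101 and 3.41 to 3.94 for LpxA. Leaving out adjacent numbers at both ages, chosen after seeing the data, gave 5.56 to 5.85 and 3.39 to 4.12. With the replicate number as a block, the SE was 0.23 for DRT101 and 0.44 for LpxA, and 1041 probes were called higher and 987 lower; AT2G04540 was called a rise there too. Its call held under all 9 processing alternatives, with adjusted p from 7.38e-08 to 0.00724 in limma. Adjacent numbers taken as a random effect gave 780 higher and 791 lower, and averaging them gave 751 and 756. Without normalization, 2245 probes were called higher and 327 lower, with the median of all probes at 1.82. Where a 2-week value is 0, the level is bounded from above only.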

Other observations

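The 2-week samples 5 and 6 held the highest values of AT1G35340, one of the genes most like LpxA, which was at 0 in the other 4 samples of 2 weeks. AT1G35340 was picked by its likeness to LpxA over samples that include these, so the shared pattern comes with the choice. None of the 20 protein-coding genes nearest to DRT101 in RefSeq's order, 10 on each side, and none of the 20 nearest to LpxA had a probe of its own on the array.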
